A study of Mus musculus with 4 samples.

Results

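Glucose transport, the 10 steps of glycolysis, the fate of pyruvate and the pentose phosphate pathway were followed through 38 listed genes in the embryonic mouse cranial neural tube. They were matched by GENCODE M21 symbol in the count table, and all 38 had at least 20 counts summed over the 4 libraries. Aldoa stands under 2 Ensembl IDs, so the 38 symbols gave 39 of the table's 54532 gene IDs, and all 39 were among the 19207 tested. Cranial neural tubes were dissected at E10.5 from 4 separate embryos. DCKO 1 and DCKO 2 came from embryos with Lats1 flox/flox and Lats2 flox/flox alleles together with the transgene E2f1 Tg(Wnt1-cre)2Sor/+, and Control 1 and Control 2 from embryos that lacked this transgene. The labels give neither the floxed alleles of the Controls nor the sex. Lats1 and Lats2 encode the kinases of the Hippo pathway that restrain the coactivators YAP and TAZ. The Wnt1 promoter drives Cre in the dorsal neural tube and neural crest, so cells elsewhere in the dissected tissue keep both genes, and the transgene itself differs with the group.

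Glycolysis splits glucose into pyruvate in the cytosol. Pyruvate then either becomes lactate, which leaves the cell with a proton through monocarboxylate carriers, or enters mitochondria and is oxidised by the pyruvate dehydrogenase complex, which the pyruvate dehydrogenase kinases switch off. The pentose phosphate pathway branches off after the first step and yields NADPH and ribose. Most steps can be run by several isozymes encoded by separate genes, and many of these genes are textbook targets of the hypoxia-inducible factors, which bind the core ACGTG or GCGTG. Neural progenitors of the early neural tube are known for high glycolytic activity.

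Of the 39 gene IDs, 24 were higher in DCKO and 0 lower at an adjusted p under 0.05 (edgeR quasi-likelihood test, Benjamini-Hochberg over all tested genes), where 8.93% of all tested genes were higher and 8.11% lower. 26 of the 39 had an unadjusted p under 0.05, as had 6896 of all 19207 tested genes. The rise covered glucose uptake (2 of 2), the enzymes of the 10 glycolytic steps (15 of 17), lactate production and export (3 of 4) and the pyruvate dehydrogenase kinases (3 of 4). Of the 3 listed genes for enzymes that make and break fructose 2,6-bisphosphate, 1 rose. None of the 5 genes for pyruvate dehydrogenase subunits and the mitochondrial pyruvate carrier passed, and none of the 4 pentose phosphate genes (1 and 0 at an unadjusted p under 0.05). The median log2 fold change was 1.05 over the 39 IDs and 0.03 over all tested genes. Both DCKO libraries lay above both Control libraries for 30 of the 39, against 33.6% of all tested genes, and below both for 3, against 32.9%.

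With 2 libraries a group, the number of calls differed with the library left out. With Control 1 or Control 2 left out, most calls of higher members were lost. The DCKO pair then set the spread alone. Over all tested genes, Spearman rho was 0.966 within the DCKO pair and 0.983 within the Control pair. The part of this spread in the loss of calls was not tested. With DCKO 1 or DCKO 2 left out, most calls of higher members were kept. The members' median log2 fold change was 1.21 without Control 1 and 1.05 without Control 2. It was 1.02 without DCKO 1 and 1.20 without DCKO 2. The glucose transporters Slc2a1 and Slc2a3, the hexokinase Hk2, the phosphofructokinase Pfkp and the regulatory enzyme Pfkfb3 were called without each of the 4 libraries in turn. Scaled by library totals instead of TMM, the median of all tested genes moved to -0.32 and that of the members to 0.70, with 21 members higher (Pgam1, Slc16a1 and Pdk3 lost their calls) and 1 lower, and 1219 of all genes higher and 3744 lower in place of 1716 and 1558.

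Other features of the libraries moved with the group, and their part in the results below was not tested. Library totals ranged from 41798361 to 55137810 counts, of which the ribosomal RNA cluster on chromosome 17 took 12.4% to 13.2% in Control and 24.7% to 30.3% in DCKO. With this cluster and erythroid genes removed, 24 members were again higher. Xist held 10837 and 7786 counts in the Controls and 8 and 22 in the DCKO pair, so sex and group cannot be told apart. In CPM (counts scaled to sequencing depth), Lats1 had 44.2 and 65.6 in the Controls and 30.0 and 29.7 in the DCKO pair (log2 fold change -0.88, SE 0.23, adjusted p 0.0538), and Lats2 26.7 and 13.3 against 21.2 and 35.3 (0.50, SE 0.41, 0.426); these are counts over whole genes, which also cover parts outside a deletion. Markers of other cells also moved. Of 12 cranial mesenchyme markers 11 rose (summed CPM 632 and 671 in Control, 4442 and 2014 in DCKO), of 12 endothelial markers 8 rose (206 and 195 against 828 and 489), and of 10 tested surface ectoderm markers 8 rose (16.96 and 30.0 against 282 and 288), with Krt5 and Krt14 at 0 in both Controls. Of 12 neural progenitor markers 9 fell (3506 and 3923 against 2719 and 2157), of 12 neuronal markers 6 fell (1138 and 1429 against 647 and 264), and of 13 tested erythroid markers 8 fell (2593 and 3842 against 910 and 666). The pericyte list had 6 of 9 higher and 1 lower (234 and 223 against 604 and 805), and the macrophage list 0 of 12 (35.7 and 49.5 against 120 and 36.5; 1 at an unadjusted p under 0.05). In bulk tissue, more cells of a type and more RNA per cell cannot be told apart.

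The promoters of the members were read for the ACGTG core, as many genes of glycolysis are known hypoxia targets. RefSeq promoters (GRCm38.p6, the 250 bases before the transcript start) were matched for 37 of the 38 symbols, all but Slc2a3. ACGTG on either strand was found in 15 of the 37 (40.5%), in 24.1% of the 12266 tested genes with a promoter and in 18.5% of all 27025 genes with one. Among matched members that rose it was found in 10 of 22, and among the other members in 5 of 15. For GCGTG the order was the reverse, with 15 of 22 and 12 of 15. Either core was found in 19 of 22 and 14 of 15. Members had a mean of 1.49 promoters each against 1.28 for tested genes, and a median GC content of 60.8% against 59.6%. GCGTG was found in 73.0% of the members against 47.9% of tested genes, and the TEAD core GGAATG in 18.9% against 13.01%. Among all tested genes that passed as higher, ACGTG was found in 25.8%, GCGTG in 49.8% and GGAATG in 18.5%. 4 members, Hk2, Pgk1, Ldha and Slc16a3, held at least 2 separate ACGTG matches in a single promoter (10.8% of the members, 3.39% of tested genes). All 4 rose, as did 22 of the 37 matched members. The windows of these 4 are shown 5′ to 3′ on the gene's strand, with ACGTG or its reverse complement CACGT in capitals. Where both overlap they form the palindrome CACGTG, counted as 1 match. The windows are chr6:82774455-82774704 on the minus strand for Hk2, and on the plus strand chrX:106186850-106187099 for Pgk1, chr7:46845554-46845803 for the first of the promoters of Ldha and chr11:120948817-120949066 for Slc16a3.
Hk2: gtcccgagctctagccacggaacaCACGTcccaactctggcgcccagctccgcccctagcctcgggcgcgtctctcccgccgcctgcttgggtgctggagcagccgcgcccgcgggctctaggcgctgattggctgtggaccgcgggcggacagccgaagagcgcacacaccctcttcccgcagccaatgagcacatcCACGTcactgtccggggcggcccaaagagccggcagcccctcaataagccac
Pgk1: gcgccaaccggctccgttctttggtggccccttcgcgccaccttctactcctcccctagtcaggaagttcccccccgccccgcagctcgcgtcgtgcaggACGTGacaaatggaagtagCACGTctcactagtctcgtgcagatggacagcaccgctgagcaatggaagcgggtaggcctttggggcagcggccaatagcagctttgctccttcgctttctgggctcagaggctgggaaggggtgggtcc
Ldha: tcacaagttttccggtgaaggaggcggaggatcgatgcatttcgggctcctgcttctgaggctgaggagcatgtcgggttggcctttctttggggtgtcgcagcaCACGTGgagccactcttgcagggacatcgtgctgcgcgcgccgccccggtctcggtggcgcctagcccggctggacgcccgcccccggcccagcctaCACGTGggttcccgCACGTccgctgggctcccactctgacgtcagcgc
Slc16a3: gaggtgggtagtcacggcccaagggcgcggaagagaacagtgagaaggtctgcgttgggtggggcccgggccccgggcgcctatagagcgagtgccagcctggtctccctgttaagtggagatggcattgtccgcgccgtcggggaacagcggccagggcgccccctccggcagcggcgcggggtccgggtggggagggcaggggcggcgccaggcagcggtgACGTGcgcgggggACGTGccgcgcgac
The matches began 226 and 52 bases before the start in Hk2 and 150 and 131 in Pgk1. In Ldha they began at 145, 48 and 34 bases, the first and second of them palindromes, and in Slc16a3 at 27 and 14. GENCODE exons cover 14 bases of the Slc16a3 window and 0 of the other windows. A match describes these letters and does not show that a factor binds there.

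**Figure D1:**
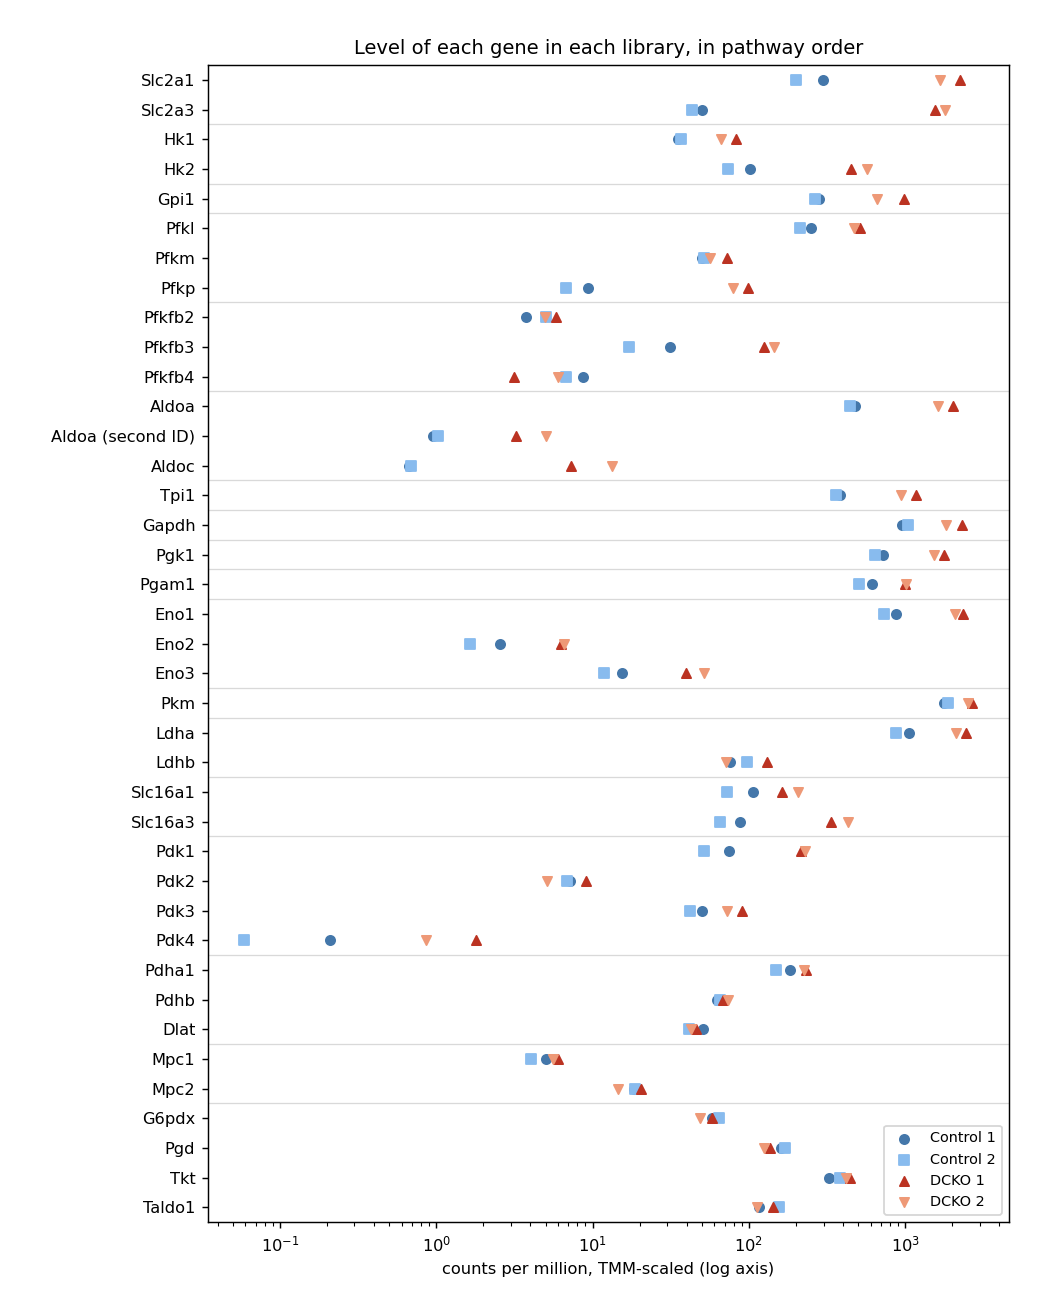
CPM (counts scaled to depth, TMM-scaled, log axis) of each gene ID in each of the 4 libraries, in the order of the pathway, with grey lines between steps. The DCKO triangles lie to the right of both Control symbols for 30 of 39 IDs, with the widest gap at Slc2a3.

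The largest rise in transcript levels was at glucose entry. Slc2a1 (chr4:119108711-119137983, GRCm38, plus strand) encodes GLUT1, the widely expressed glucose transporter of embryonic tissue and of the blood-brain barrier. It had 297 and 200 CPM in Control 1 and Control 2 and 2235 and 1667 in DCKO 1 and DCKO 2. Both DCKO values were several times the higher Control value, and the log2 fold change was 2.97 (SE 0.28, adjusted p 0.0079). Slc2a3 (chr6:122727809-122801640, minus strand) encodes GLUT3, a high-affinity transporter best known from neurons. It went from 50.2 and 43.3 CPM to 1549 and 1786, a change of 5.16 on the log2 scale (SE 0.21, adjusted p 0.0028), the largest of the 39. On the log2(TPM + 1) scale the change of Slc2a3 was 4.20. Summed over both genes, transporter transcripts stood at 12.8 and 11.7 times the Control mean in DCKO in CPM, and at 7.59 and 7.49 times in TPM. Uptake itself was not measured.

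In the first phase of glycolysis, which spends ATP, fold changes ranged widely between isozymes; the differences between isozymes were not tested. Hexokinases trap glucose as glucose 6-phosphate. Hk2, the form induced in growing tissues and tumours, had 101 and 73.1 CPM in the Controls and 450 and 567 in the DCKO pair (log2 fold change 2.54, SE 0.24, adjusted p 0.0079). Hk1, the constitutive form, had 35.1 and 36.8 against 82.4 and 66.2 (1.05, SE 0.18, 0.0213). Both hexokinases were thus higher in both DCKO libraries, and Hk2 by the larger factor. Gpi1, the isomerase of the second step, rose from 282 and 266 CPM to 985 and 661 (1.59, SE 0.23, 0.0166). An antisense gene that overlaps it, Gm26762, held 12.9% as many counts and also rose (2.11).

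Phosphofructokinase catalyses the committed step. Its 3 subunits are named for liver, muscle and platelet. Pfkp, the platelet form, had 9.34 and 6.76 CPM in the Controls and 97.9 and 79.6 in the DCKO pair (log2 fold change 3.46, SE 0.24, adjusted p 0.0060). Pfkl rose from 250 and 211 to 511 and 470 (1.09, SE 0.17, 0.0179). Pfkm had 50.4 and 51.7 CPM against 72.2 and 56.0 and did not pass (0.33, SE 0.18, 0.256). Pfkp, the lowest of the 3 in Control TPM, had the largest fold change, and Pfkm the smallest. Pfkp overlaps Pitrm1 on the other strand, which held 272% of the Pfkp counts and did not pass (0.41, adjusted p 0.185). Pfkm overlaps Senp1 in the same way, which held 112% of the Pfkm counts (-0.23, adjusted p 0.350). Whether counting used strand is not given in the sources used here.

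The PFKFB enzymes set the level of fructose 2,6-bisphosphate, the allosteric activator of phosphofructokinase. Pfkfb3, whose product strongly favours making it, had 31.2 and 17.2 CPM in the Controls and 124 and 144 in the DCKO pair (log2 fold change 2.47, SE 0.32, adjusted p 0.0126). Pfkfb4 had 8.72 and 6.74 against 3.12 and 6.03 (-0.76, SE 0.39, 0.227), and Pfkfb2 3.75 and 5.04 against 5.80 and 4.95 (0.29, SE 0.31, 0.537). Pfkfb3 alone of these 3 passed; Pfkfb1, outside the listed genes, rose too and is given with the neighbouring pathways. Yod1 on the other strand of Pfkfb2 held 134% of its counts (-0.87, adjusted p 0.179). Pfkfb4 was below both Controls in both DCKO libraries, an order found for 32.9% of all tested genes. Its log2 fold change was -1.31 without DCKO 2 and -0.36 without DCKO 1. It was -0.56 without Control 1 and -0.96 without Control 2.

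From aldolase to enolase, every listed gene passed as higher. Aldolase splits the 6-carbon sugar. Its main gene Aldoa (ENSMUSG00000030695, chr7:126795234-126800751, minus strand) had 473 and 446 CPM in the Controls and 2028 and 1625 in the DCKO pair (log2 fold change 1.99, SE 0.19, adjusted p 0.0079). The second ID of that symbol, ENSMUSG00000114515, was near 1 CPM in Control (0.958 and 1.03) and had 3.22 and 5.01 in DCKO (2.05, SE 0.40, 0.0286). How reads were divided between the IDs is not known. Fam57b, which overlaps on the other strand, held 303% of the counts of the second ID and did not pass (-1.78, adjusted p 0.132). Aldoc, the brain aldolase, rose from 0.671 and 0.692 to 7.30 and 13.3 CPM (3.91, SE 0.42, 0.0093). Its fold change was the second largest of the 39, from a very low start. The gene for triosephosphate isomerase, Tpi1, went from 381 and 363 to 1164 and 936 (1.50, SE 0.18, 0.0115).

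Gapdh, which takes the first oxidative step and often serves as a reference gene, had 956 and 1034 CPM in the Controls and 2292 and 1820 in the DCKO pair (log2 fold change 1.05, SE 0.19, adjusted p 0.0246). In this fit it was therefore not at a constant level. Its call was lost in the edgeR fit with the replicate block (1.04, adjusted p 0.0529), and its log2 fold change was 0.70 with library totals. Gapdh has 78 near-identical copies in the genome, which held 5.10% as many counts. Pgk1, the X-linked kinase of the first ATP-yielding step, went from 723 and 636 to 1758 and 1520 (1.27, SE 0.18, 0.0151). Pgam1, the mutase after it, went from 617 and 508 to 988 and 1016 (0.83, SE 0.17, 0.0325). The call of Pgam1 ended with library totals (0.48, adjusted p 0.0986) and in the TPM fit (0.60, 0.116). In each of these 3 genes the lower DCKO library was above the higher Control library.

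All 3 enolase genes rose, by log2 fold changes of 1.47 to 1.74. Eno1, the ubiquitous form, had 872 and 727 CPM in the Controls and 2341 and 2091 in the DCKO pair (log2 fold change 1.47, SE 0.18, adjusted p 0.0121). Eno3, the muscle form, had 15.4 and 11.9 against 39.6 and 51.5 (1.74, SE 0.23, 0.0128), and Eno2, the neuronal form, 2.54 and 1.64 against 6.32 and 6.60 (1.63, SE 0.35, 0.0344). The neuron-associated Eno2 was higher in DCKO while 6 of 12 neuronal markers fell. Of the listed genes of the 10 steps, Pfkm and the pyruvate kinase gene Pkm did not pass. Pkm had 1758 and 1886 CPM against 2686 and 2502 (0.51, SE 0.16, 0.0873). Its groups did not overlap, and of all 39 IDs it had the highest Control level in TPM.

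**Figure D2:**
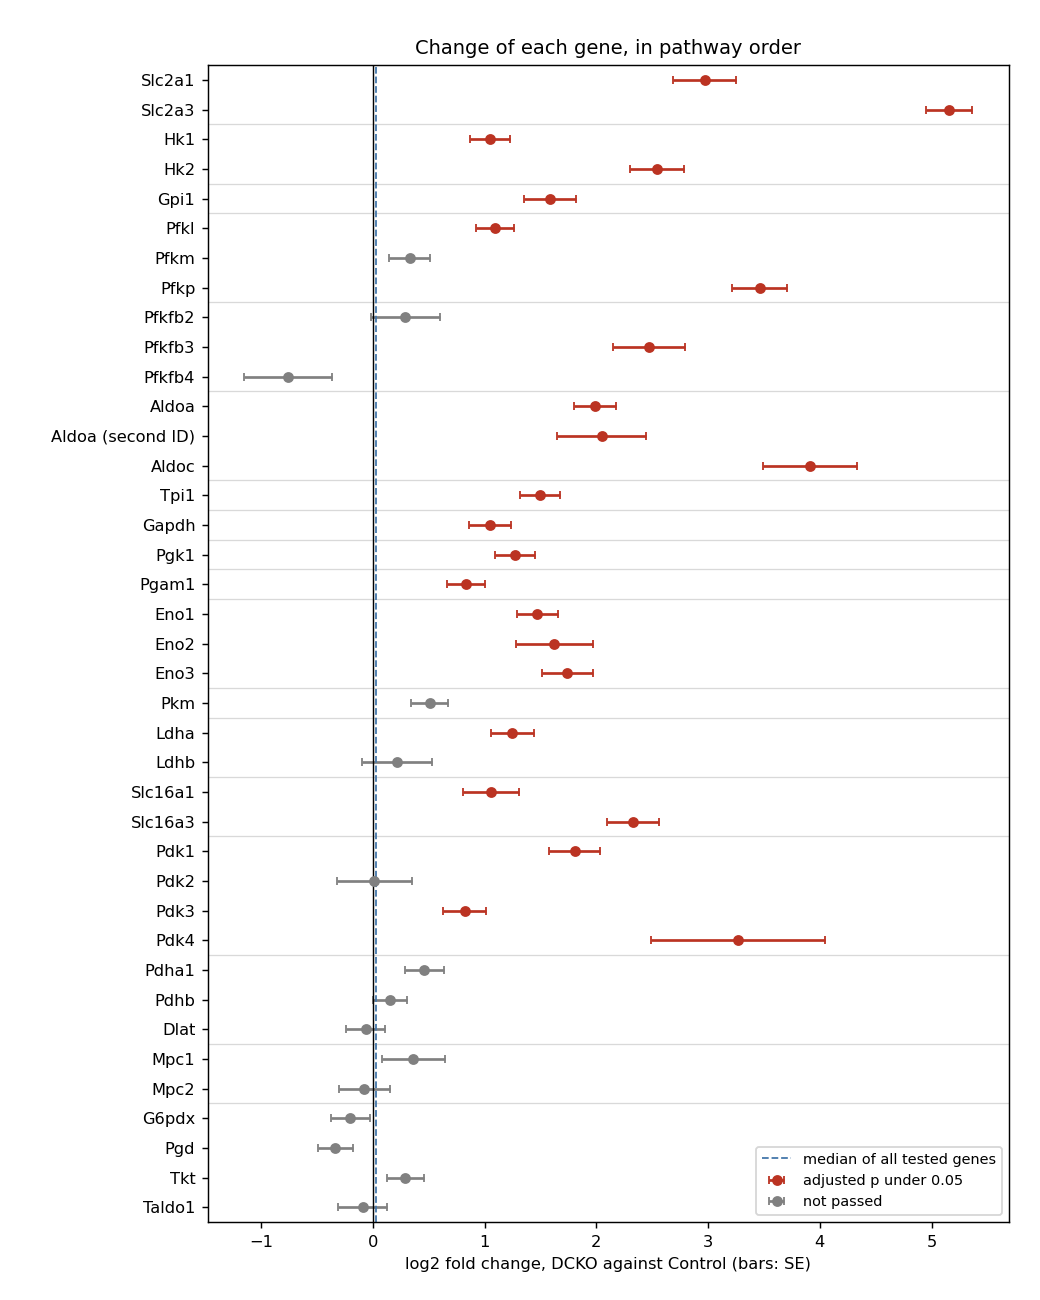
Log2 fold change of DCKO against Control for each gene ID in pathway order, with bars for 1 SE from the edgeR fit; red marks an adjusted p under 0.05 and the dashed line the median of all tested genes. Values run from -0.76 at Pfkfb4 to 5.16 at Slc2a3, and the 9 genes from Pdha1 to Taldo1 stay between -0.33 and 0.46.

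Of the 4 genes of lactate production and export, 3 rose. Ldha, whose subunit favours reduction of pyruvate to lactate, had 1050 and 868 CPM in the Controls and 2446 and 2114 in the DCKO pair (log2 fold change 1.25, SE 0.19, adjusted p 0.0174). Ldhb, whose subunit favours the reverse reaction, had 75.7 and 97.3 against 130 and 71.7, with overlapping groups (0.22, SE 0.31, 0.656). Slc16a3, the lactate exporter MCT4 of glycolytic cells, rose from 87.3 and 65.4 to 334 and 433 (2.33, SE 0.23, 0.0081). Slc16a1, the carrier MCT1, rose from 106 and 71.9 to 163 and 207 (1.05, SE 0.25, 0.0439). The call of Slc16a1 was lost without DCKO 2 (0.87, adjusted p 0.0580), without Control 1 (0.0895) and without Control 2 (0.223), and with library totals (0.0921), the TPM fit (0.110) and the fit with the replicate block (0.0731).

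Of the kinases that shut off pyruvate dehydrogenase 3 of 4 rose, while no gene of the complex they act on passed. Pdk1, the kinase known for its response to low oxygen, had 75.0 and 51.4 CPM in the Controls and 215 and 227 in the DCKO pair (log2 fold change 1.81, SE 0.23, adjusted p 0.0122). Pdk3 had 50.2 and 41.7 against 89.9 and 72.8 (0.82, SE 0.19, 0.0430). Pdk4, known from fasting, was close to the floor in Control, with 13 and 3 counts against 72 and 32 in DCKO (3.27, SE 0.78, 0.0450). These calls differ in firmness. Without DCKO 1, Pdk3 (0.66, adjusted p 0.0607) and Pdk4 (2.64, 0.0845) no longer passed, and the value of Pdk4 ran from 2.64 without Control 2 to 4.42 without Control 1, with adjusted p of 0.203 and 0.115. Pdk2 had 7.20 and 6.86 CPM against 9.05 and 5.14 (0.01, SE 0.34, 0.982). Of the complex itself, Pdha1 had 183 and 149 CPM against 231 and 226 (0.46, SE 0.17, 0.118). Its partner subunit Pdhb had a log2 fold change of 0.16 (SE 0.15), and the acetyltransferase Dlat -0.06 (SE 0.17). The subunits of the mitochondrial pyruvate carrier were at 0.36 (Mpc1, SE 0.28) and -0.07 (Mpc2, SE 0.23), the latter with 18.3 and 18.7 CPM against 20.5 and 14.5. The adjusted p of these 4 genes ran from 0.402 to 0.845.

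None of the 4 pentose phosphate genes passed in either direction. In the oxidative branch, G6pdx, the X-linked entry enzyme, had 58.3 and 64.0 CPM in the Controls and 58.0 and 48.4 in the DCKO pair (log2 fold change -0.20, SE 0.17, adjusted p 0.447). Pgd, the second dehydrogenase of that branch, had 159 and 169 against 136 and 124 (-0.33, SE 0.15, 0.181). Both oxidative genes were lower in both DCKO libraries than in either Control, without passing. The same order of libraries was found for 32.9% of all tested genes. Ikbkg, on the other strand of G6pdx, held 27.5% of the G6pdx counts and did not pass (-0.44, adjusted p 0.180). In the branch that rearranges sugars, Tkt had 324 and 380 CPM against 444 and 417 (0.29, SE 0.16, 0.256), and Taldo1 116 and 157 against 143 and 113 (-0.09, SE 0.22, 0.802). Scaled by library totals, Pgd passed as lower (-0.68, adjusted p 0.0304). A p that misses the threshold does not show that these levels were equal.

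**Figure D3:**
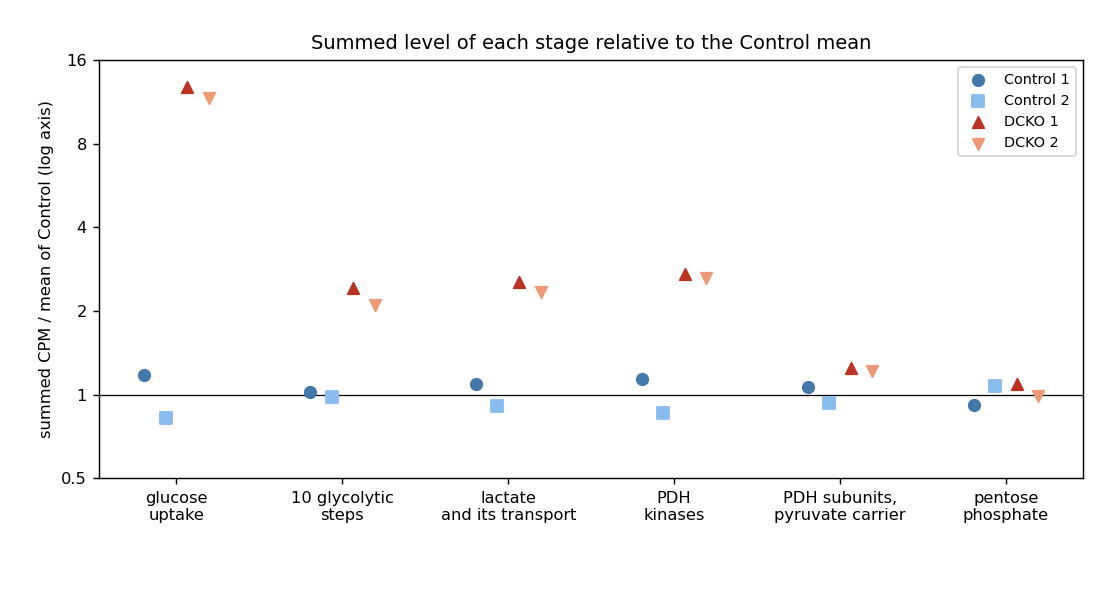
Summed CPM of the genes of each stage in each library, divided by the mean of the 2 Controls (log axis; 1 point per library). Glucose uptake stands at 12.8 and 11.7 in DCKO, and the glycolytic steps, lactate genes and pyruvate dehydrogenase kinases between 2.11 and 2.71. The pyruvate dehydrogenase and carrier genes stand at 1.24 and 1.21, and pentose phosphate genes at 1.09 and 0.986. The same sums in TPM are not drawn. They are 7.59 and 7.49 for uptake, 1.95 and 1.97 for the glycolytic steps and 1.97 and 2.19 for the lactate genes. For the kinases they are 1.95 and 2.48, for the pyruvate dehydrogenase and carrier genes 0.938 and 1.07, and for the pentose phosphate genes 0.827 and 0.869.

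Levels of different genes were compared in TPM, which is scaled by length. In Control the most abundant were Pkm (1401 and 1230 TPM), Gapdh (1371 and 1199) and Ldha (1239 and 917), whose values overlapped between neighbours, and the least abundant were Aldoc (0.529 and 0.379) and Pdk4 (0.111 and 0.0174). In DCKO Gapdh (2320 and 2202) and Ldha (2158 and 2349) led, followed by Aldoa (1802 and 1704), Eno1 (1629 and 1760) and Pkm (1553 and 1675). In TPM Pkm thus went from the top of the list in Control to a place below Aldoa and Eno1 in both DCKO libraries. In CPM, which is not scaled by length, Pkm was the highest member in both DCKO libraries (2686 and 2502). The enzymes of the 10 steps together took 0.663% and 0.521% of all TPM in Control and 1.16% in each DCKO library, although the ribosomal cluster took more of the DCKO total. The pentose phosphate genes took 0.0565% and 0.0556% against 0.0464% and 0.0487%.

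Within steps, the make-up of isozymes differed between the groups in most families. Shares of the summed TPM of the listed genes of a step are given per library with no test, since an exact permutation of 2 against 2 libraries cannot go below p = 0.333. Slc2a3 held 11.6% and 13.8% of the 2 transporters in the Controls and 26.4% and 36.1% in the DCKO pair. Hk2 went from 65.9% and 60.4% of the hexokinases to 81.1% and 86.8%. Among phosphofructokinases Pfkp went from 3.10% and 2.74% to 12.8% and 16.6%, and Pfkm from 19.3% and 23.3% to 12.5% and 10.5%. Pfkl remained the main subunit, with 77.6% and 73.9% against 74.6% and 72.9%, and its groups overlapped. The share of the platelet subunit was thus larger, and that of the muscle subunit smaller, in both DCKO libraries, and the ratio of Pfkp to Pfkm was 9.28-fold higher.

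The largest difference in share was among the 3 listed PFKFB genes, where Pfkfb3 went from 69.0% and 51.9% to 93.1% and 93.8%. With Pfkfb1 added to the family, an alternative chosen after seeing the data, the share of Pfkfb3 was 60.0% and 46.4% in the Controls and 85.6% and 86.5% in the DCKO pair. Pfkfb4 went from 18.2% and 29.2% of the 3 to 3.10% and 2.34%, and the ratio of Pfkfb3 to Pfkfb4 was 13.4-fold higher. Slc16a3 went from 55.4% and 64.8% of the 2 carriers to 80.5% and 81.0%. Ldha held 91.8% and 86.8% of the lactate dehydrogenases in the Controls and 94.2% and 96.4% in the DCKO pair. In these 3 families the shares of the groups did not overlap. Among the kinases, Pdk3 led in Control (56.2% and 58.2%, Pdk1 35.7% and 32.7%) and Pdk1 in DCKO (51.7% and 64.6%, Pdk3 43.7% and 33.0%). On shares of raw counts, which are not scaled by length, Pdk1 already led in Control with 56.5% and 51.4%. Aldolase and enolase kept their main genes: Aldoc stayed under 1% of the aldolases, and Eno1 held 97.5% and 97.6% of the enolases in the Controls and 97.5% and 96.5% in the DCKO pair.

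**Figure D4:**
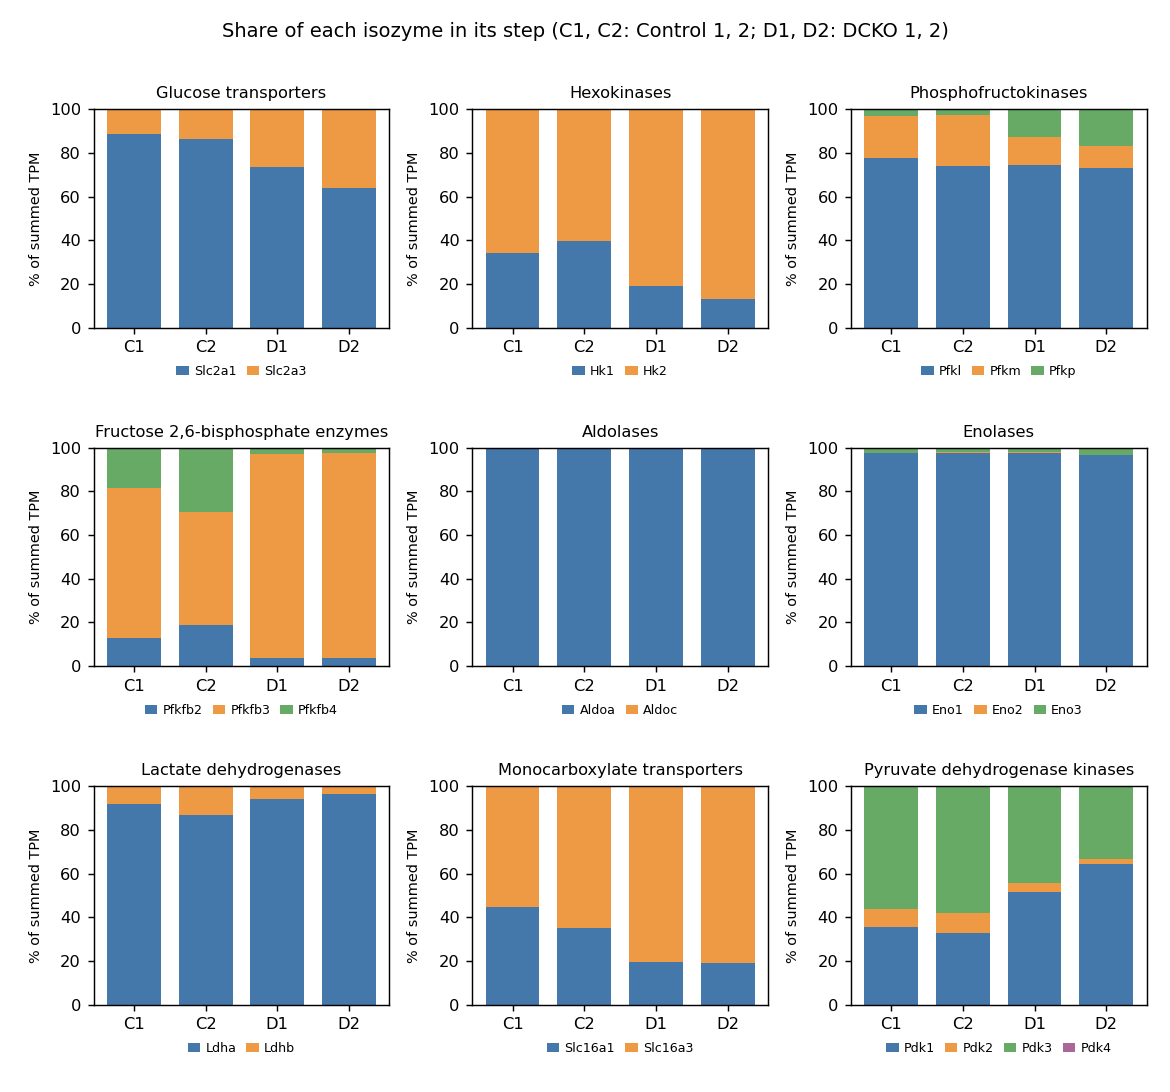
Share of each isozyme in the summed TPM of its family, as stacked bars for Control 1, Control 2, DCKO 1 and DCKO 2 (C1, C2, D1, D2). Slc2a3, Hk2, Pfkp, Pfkfb3, Slc16a3 and Pdk1 take larger shares in both DCKO bars than in either Control bar, while Eno1 stays between 96.5% and 97.6%.

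Genes of neighbouring pathways were counted in the same fit. Of 58 tested genes of neighbouring pathways, 11 rose and 2 fell, with a median log2 fold change of 0.18. Of all tested genes, 8.93% rose and 8.11% fell. Glycogen genes made up 6 of the 11, out of 12 listed, among them Gys1, the synthase (1.86), Gyg, the primer glycogenin (1.53), Gbe1, the branching enzyme (1.27), Pygl, a phosphorylase (2.03), and Pgm1, which links glycogen to glycolysis (2.34). Both the makers and the breakers of glycogen were thus among those that rose. The others were Pfkfb1 (1.50), Bsg, the chaperone of the lactate carriers (0.99), Pck2 (1.73) and Slc37a4 (1.16) of glucose production, and Gfpt2 of the hexosamine branch (1.15). The 2 that fell were Bpgm (-1.64) and the pyruvate kinase Pklr (-2.26), both known from red cells, where 8 of 13 tested erythroid markers fell too; the part of red cells in this was not tested. Of the other glucose transporters 0 of 6 tested passed, of the other pentose phosphate genes 0 of 7 and of the other pyruvate dehydrogenase genes 0 of 6. Each of these 3 lists held 2 genes at an unadjusted p under 0.05, a level reached by 6896 of all 19207 tested genes.

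Among 17 regulators of glycolytic genes, 3 rose and 3 fell, where 8.93% of all tested genes rose and 8.11% fell. Egln3, an oxygen-sensing prolyl hydroxylase that is itself a hypoxia target, rose from 9.76 and 7.41 CPM to 70.2 and 94.9 (log2 fold change 3.26, SE 0.25, adjusted p 0.0061). Egln1 (1.42) and Arnt, the partner of the hypoxia-inducible factors (0.86), rose too. Egln2 (-1.26), Mlxip (-0.66), which encodes the glucose-responsive factor MondoA, and Arrdc4 (-1.45) fell. Txnip, a known MondoA target, did not pass and had 27.7 and 32.1 CPM against 94.7 and 45.8 (1.23, SE 0.36, 0.0680). The transcript of Hif1a did not pass (132 and 103 CPM against 99.8 and 101; -0.23, SE 0.18, 0.410), nor did Epas1 (1.60, SE 0.48, 0.0759) or Myc (0.97, SE 0.27, 0.0627). Of 16 hypoxia targets outside glycolysis 14 rose, with a median of 2.96.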

How the data were processed

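RNA of 4 dissected embryonic cranial neural tubes (2 Control, 2 DCKO) was sequenced after a stranded kit, per the labels' protocols. The authors deposited whole-number read counts per Ensembl gene without scaling, TPM per gene, and a table with log2 fold changes, p-values and FDR for 12574 genes. Per the submitters' processing notes, which give no roles, the tools were limma 3.30.13 and edgeR 3.16.5 under R 3.3.2, TopHat2 2.1.1 and StringTie, and the build GRCm38 or mm10. How the counts were made, and whether strand was used, is not given in the sources used here. The authors' deposited table lists 38 of the 39 member IDs (not Pdk4), 23 of them higher at an FDR under 0.05 and 0 lower, against 15.6% and 13.2% of that table.

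Symbols came from GENCODE M21 (54409 of 54532 IDs). Counts were tested with edgeR 4.0.16 in R 4.3.3: filterByExpr (minimum count 10, total 15; 19207 genes), TMM, a quasi-likelihood fit with group as its only term (2 residual degrees of freedom), and Benjamini-Hochberg adjustment over all tested genes, two-sided, threshold 0.05. Standard errors follow from the fold change and F. CPM are on TMM-scaled totals, where 3 counts in a library equal 0.0479 to 0.0812 CPM. Copies are genes at least 95% identical over at least 200 bases. Alternatives used DESeq2 1.42.0 and limma 3.58.1, other scalings and filters, and left out libraries or genes. The script was tested on simulated data. Every member is named by step, with values per library for those that passed and for the main gene of each step, and of the other pathway genes those that passed, except 1 that is not reported here. The members and lists were chosen with earlier results of these data known.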

Additional observations from a re-analysis of the deposited data

How the results depend on the processing

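The main fit had 2 libraries a group and 2 residual degrees of freedom. A fit with 1 library left out takes its spread from the pair left whole. Genes below a few CPM, such as Pdk4, rest on few counts. Over all tested genes, calls of higher genes numbered 1002 with a replicate block, 1007 and 958 with limma on log2(TPM + 1) and log2(TPM + 0.1), 0 with limma on unfiltered TPM, and 155 to 2619 with 1 library left out. Calls of lower genes numbered 3744 with library totals, 2678 with DESeq2, 776 with the block, 0 with unfiltered TPM and 72 to 2565 with 1 library left out. The 24 higher members became 5 to 23 with 1 library left out, 18 with the block, 19 with filtered TPM (Hk1, Pgam1, Slc16a1 and Pdk3 did not pass, and Pdk4 was below the filter) and 0 with unfiltered TPM (21 at an unadjusted p under 0.05), and the 0 lower members 1 with library totals and 0 to 1 with 1 library left out. DESeq2 and limma-voom each called 24 higher. The members' median was 0.70 with library totals, 0.81, 0.82 and 0.81 in the 3 TPM fits and 1.02 to 1.21 with 1 library left out. None of the 24 called members took a negative sign in any of these fits. Reversals of fold changes concerned members that had not passed. With library totals they were Pfkm (-0.019), Pfkfb2 (-0.056), Ldhb (-0.13), Pdk2 (-0.33), Pdhb (-0.19) and Tkt (-0.056), beside the moved median of all genes. In the TPM fits they were Ldhb (-0.19), Pdk2 (-0.28 and -0.34) and Pdhb (-0.10). Pdk2 was also at -0.018 without a filter, -0.036 with DESeq2, -0.035 with limma-voom and -0.040 with the block. With 1 library left out, the log2 fold change ran from -0.28 to 0.58 for Ldhb, -0.46 to 0.36 for Pdk2 (also -0.053 without Control 2), -0.23 to 0.080 for Dlat, -0.35 to 0.15 for Mpc2 and -0.30 to 0.11 for Taldo1 (0.065 without DCKO 2), and the share of Eno3 changed by -0.017 to 0.901 points, a fit chosen after seeing the data. For the TPM fits, DESeq2 and the block the cause was not tested. Deviations from the group means had a Pearson r of -0.08 between Control 1 and DCKO 1. With 2 libraries a group this cannot show whether replicate numbers paired the libraries. The block lost the calls of the second Aldoa ID, Gapdh, Pgam1, Eno2, Slc16a1 and Pdk3.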
